A study of Homo sapiens with 6 samples.

Results

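Histone chaperones are proteins that escort histones from their synthesis to DNA and back, and keep them from binding DNA at the wrong place. The 10 genes described here are *CHAF1A*, *CHAF1B*, *ASF1A*, *ASF1B*, *NASP*, *HIRA*, *DAXX*, *NAP1L1*, *NAP1L4* and *SSRP1*, chosen by name from the 20348 genes of the deposited table, and each symbol matched 1 row. All 10 are annotated to nucleosome assembly in that table. The cells were MV4-11, an established human acute myeloid leukemia (AML) cell line, given either no drug (Control, 3 samples) or 1 μM WNK463, a compound that blocks WNK kinases (WNK463, 3 samples), with RNA taken after 48 h. The transcriptome was sequenced to find which genes differ when WNK kinases are inhibited in AML cells. The data cover 1 cell line, 1 dose and 1 time, and the labels do not say whether the samples of a group were separate cultures. A p-value therefore judges the group difference against the spread between these samples, which may be technical.

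During S phase the replication fork strips nucleosomes from the DNA, and both daughter strands need new H3-H4 before H2A-H2B completes the particle. Chromatin assembly factor 1 (CAF-1) places new H3-H4 behind the fork, while HIRA and DAXX place the replacement histone H3.3 outside replication. ASF1 and NASP hold H3-H4 upstream of these depositing factors. NAP1 proteins and FACT handle H2A-H2B. For this reason the genes are described by route: replication-coupled (*CHAF1A*, *CHAF1B*, *ASF1B*), replication-independent (*HIRA*, *DAXX*), H3-H4 carriers that serve both (*ASF1A*, *NASP*), and H2A-H2B chaperones with FACT (*NAP1L1*, *NAP1L4*, *SSRP1*).

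The libraries held from 14915745 to 17411780 counts, and the 10 chaperone genes had between 162 and 10448 counts in a sample, so all 10 passed the filter on low counts. The unit for one gene across samples is the CPM, a normalized count per 1000000 library counts, and genes are compared with each other in the deposited TPM, which also divides by transcript length. Values after ± are SDs over the 3 samples of a group. The cells matched their label by markers, with 8 of 9 myeloid leukemia genes above 1 CPM in every sample (the exception was *MPO*, at 1.31 ± 0.479 CPM with WNK463, n = 3), and 6 markers of T, B, epithelial, fibroblast and erythroid cells at most 0.766 CPM. Of the 9 myeloid genes, 4 were lower with WNK463, led by *MPO* (log2 fold change -2.50) and the lysozyme gene *LYZ* (-2.22), and 4 were higher, namely *ITGAM* (1.25), *CSF1R* (0.97), *HOXA9* (0.72) and *MEIS1* (0.33), and the part of this shift in the chaperone results was not tested. "Fell" and "rose" are used for an adjusted p below 0.05 from edgeR's quasi-likelihood test (Benjamini-Hochberg over the 11973 genes tested). Because 35.3% of all tested genes fell and 35.5% rose by this rule, a fall or rise alone says little about a gene, and its size matters more. When libraries were scaled by their totals rather than by trimmed means (TMM), log2 fold changes shifted upward by 0.15 in the median gene, and this is named where it matters.

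With WNK463, 9 of the 10 chaperone genes fell and 1, *ASF1A*, rose, where 70.8% of all tested genes passed in either direction. A fall of at least 2-fold was found for 3 genes, which are the 3 replication-coupled ones, against 5.55% of all tested genes, and 0 of the 10 rose by as much, against 9.62%. *SSRP1* lay just short of this limit (log2 fold change -0.997). The groups did not overlap for any of the 10 genes, a feature shared by 73.5% of all genes, and in 9 of them WNK463 was the lower group, as in 36.4% of all genes. The median log2 fold change of the 10 genes was -0.65, against 0.02 over all genes tested. By route, the medians were -1.62 for the replication-coupled genes, -0.27 for the replication-independent genes and -0.38 for the H2A-H2B chaperones with FACT. For the H3-H4 carriers that serve both routes the median was -0.25, from *NASP* at -0.91 and *ASF1A* at 0.41. Each median covers 2 or 3 genes, and the routes were chosen with earlier results of these data known.

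**Figure D1:**
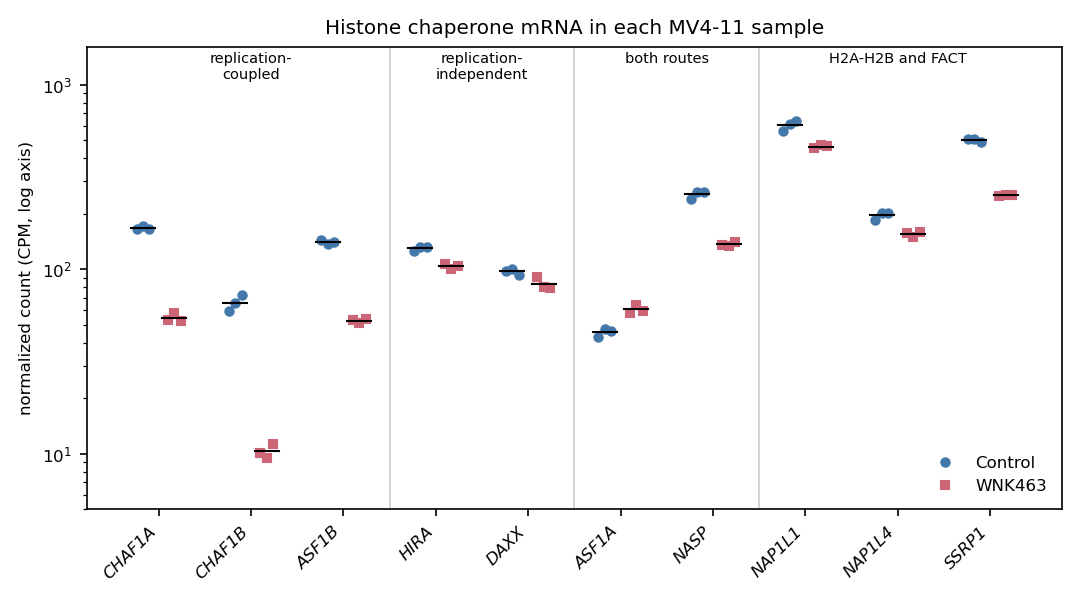
Normalized count (CPM, log axis) of each chaperone gene in each MV4-11 sample, with circles for the 3 Control samples, squares for the 3 WNK463 samples and a black line at each mean. The gap between circles and squares is widest for CHAF1B, where Control lies from 59.0 to 72.3 CPM and WNK463 from 9.42 to 11.3, and ASF1A is the one gene with squares above circles.

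The promoter sequences of the 3 replication-coupled genes and of *HIRA*, for contrast, are shown because these genes serve different routes and fell to different extents. Each runs from 250 bases before the RefSeq start of the gene to the first 10 bases from it (GRCh38.p14, written along the gene's own strand). Capitals mark matches on either strand to the CCAAT box (CCAAT), to the cell cycle homology region of late cell cycle genes (CHR, TTTGAA) and to letters of E2F sites, either TTTCCCGC, TTTGGCGC, TTTCGCGC or TTTGCCGC or, 1 base along and overlapping with these, TTCCCGCC, TTCGCGCC, TTGGCGCC or TTGCCGCC.
CHAF1A chr19:4402390-4402649 (plus strand): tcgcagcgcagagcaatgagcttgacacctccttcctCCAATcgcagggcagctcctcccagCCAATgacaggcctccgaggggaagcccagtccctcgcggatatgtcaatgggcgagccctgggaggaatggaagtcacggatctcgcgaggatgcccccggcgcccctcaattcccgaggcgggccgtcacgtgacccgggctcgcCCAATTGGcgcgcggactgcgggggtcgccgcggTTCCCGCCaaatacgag
CHAF1B chr21:36385142-36385401 (plus strand): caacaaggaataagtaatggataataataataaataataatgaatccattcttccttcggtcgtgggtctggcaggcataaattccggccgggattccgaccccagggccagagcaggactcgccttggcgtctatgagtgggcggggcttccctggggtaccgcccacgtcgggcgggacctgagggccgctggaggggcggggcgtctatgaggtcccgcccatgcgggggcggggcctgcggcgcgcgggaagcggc
ASF1B chr19:14136580-14136839 (minus strand): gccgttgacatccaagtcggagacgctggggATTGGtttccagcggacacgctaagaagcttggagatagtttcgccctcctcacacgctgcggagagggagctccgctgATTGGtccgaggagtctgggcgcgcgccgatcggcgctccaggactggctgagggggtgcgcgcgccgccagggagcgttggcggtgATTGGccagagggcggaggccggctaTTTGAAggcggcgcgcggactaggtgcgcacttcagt
HIRA chr22:19431724-19431983 (minus strand): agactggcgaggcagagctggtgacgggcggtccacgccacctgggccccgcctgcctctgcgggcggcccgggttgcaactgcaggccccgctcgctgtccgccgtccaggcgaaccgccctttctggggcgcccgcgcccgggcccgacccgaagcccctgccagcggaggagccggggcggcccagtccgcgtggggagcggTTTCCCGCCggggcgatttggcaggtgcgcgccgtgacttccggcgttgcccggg

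RefSeq promoters were found for 9 of the 10 genes, and not for *DAXX*. *CHAF1A* held 4 CCAAT matches, beginning 213, 188, 41 and 38 bases before the start, and those at 41 and 38 overlap on opposite strands. It also held TTCCCGCC beginning 7 bases before the start. *ASF1B* held 3 CCAAT matches, beginning 219, 140 and 53 bases before the start, and a CHR match beginning 27 bases before it. The *CHAF1B* window held none of these motifs. *HIRA* held TTTCCCGC beginning 45 bases before the start and with it TTCCCGCC. Of the windows not printed, *NASP* held 1 CCAAT match, 203 bases before the start, and *ASF1A* 1 that begins 15 bases after it. *NAP1L1* held an E2F match of the second group (GGCGGGAA on the gene's strand, 232 bases before the start). At 1 of the 4 RefSeq starts of *NAP1L4* there was such a match (GGCGCGAA, 97 bases before) with 2 CCAAT matches, and another start had a CCAAT match. *SSRP1* held none. Of 35116 RefSeq promoter windows of 300 bases, 34.6% held a CCAAT match, 15.2% a CHR match, 3.31% a match to the first group of E2F letters and 5.87% to the second. For the 14042 windows of tested genes the shares were 34.8%, 10.6%, 5.13% and 8.77%. These matches describe letters only and no binding was measured. Among the printed windows, the RefSeq starts of *HIRA*, *ASF1B* and *CHAF1B* lie inside the genes as GENCODE draws them. For *HIRA* and *ASF1B* the whole window does.

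Among the replication-coupled genes, the CAF-1 subunits came first. *CHAF1A* (ENSG00000167670, chromosome 19 from 4402662 to 4445018 on GRCh38) encodes the large subunit of CAF-1, which binds the sliding clamp PCNA at the fork. Its normalized counts were 165, 171 and 165 CPM in Control and 52.8, 58.0 and 52.1 CPM with WNK463. All 3 treated samples lay far under the Control range. The fitted log2 change was -1.62 (SE 0.06, edgeR adjusted p = 7.6e-14), a 3.08-fold lower level.

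*CHAF1B* (ENSG00000159259, chromosome 21 from 36385378 to 36419015) encodes the middle CAF-1 subunit, which carries WD repeats. The Control samples had 59.0, 65.6 and 72.3 CPM and the WNK463 samples 10.1, 9.42 and 11.3 CPM. With WNK463, 15.7% of the Control level was left, and the fall was 6.39-fold. The counts behind the treated values, 168, 162 and 177, are the lowest of the 10 genes, and the relative spread between replicates was also the widest (10.1% in Control, SD over mean). Of all tested genes, 0.267% had a lower log2 fold change than *CHAF1B*, against 1.58% for *CHAF1A*.

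*ASF1B* (ENSG00000105011, chromosome 19 from 14119509 to 14136956) encodes the ASF1 paralog found mainly in dividing cells, which hands H3-H4 to CAF-1. It had 144, 137 and 141 CPM in Control and 53.0, 51.4 and 53.6 CPM with WNK463. The treated samples had a spread of 2.14% (SD over mean) and lay far below Control. The fitted log2 change was -1.42 (SE 0.05, edgeR adjusted p = 2.3e-13), a 2.67-fold lower level.

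The replication-independent genes differed from Control by much less. *HIRA* (ENSG00000100084, chromosome 22 from 19330698 to 19447450) encodes the name-giving subunit of the complex that deposits H3.3 in active genes. It had 126, 132 and 132 CPM in Control and 107, 99.6 and 104 CPM with WNK463. The groups did not overlap, and the fitted log2 change was -0.32 (SE 0.05, edgeR adjusted p = 2.1e-05). It was -0.17 with total counts (edgeR adjusted p = 0.0054), and the call was lost on the deposited TPM (limma on log2(TPM + 1), -0.10, adjusted p = 0.22).

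*DAXX* (ENSG00000204209, chromosome 6 from 33318558 to 33323016) encodes the H3.3 chaperone that works with the remodeler ATRX at heterochromatin and telomeres. Its levels were 98.0, 100.2 and 93.4 CPM in Control and 90.5, 80.5 and 78.7 CPM with WNK463. The highest treated sample came close to the lowest Control sample. The fitted log2 change was -0.22 (SE 0.06, edgeR adjusted p = 0.0032). It was -0.071 with total counts (edgeR adjusted p = 0.29) and -0.031 on TPM (adjusted p = 0.71 from limma), so the fall of *DAXX* depended on the scaling.

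The H3-H4 carriers went apart. *ASF1A* (ENSG00000111875, chromosome 6 from 118894220 to 118909167) encodes the ASF1 paralog that hands H3-H4 to HIRA as well as to CAF-1. It was the one chaperone gene that rose, from 42.7, 47.5 and 46.3 CPM in Control to 58.0, 64.3 and 59.1 CPM. Each treated sample was above each Control sample, with a log2 change of 0.41 (SE 0.07, edgeR adjusted p = 2.3e-05). The whole gene lies opposite to *MCM9*, and the strand setting of the counting is not given in the sources used here. *MCM9* itself had 33.2 ± 1.32 CPM in Control and 31.6 ± 3.62 with WNK463 (edgeR adjusted p = 0.43).

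*NASP* (ENSG00000132780, chromosome 1 from 45583846 to 45618904) encodes a reservoir for soluble H3-H4. It had 241, 262 and 262 CPM in Control and 135, 133 and 140 CPM with WNK463. The mean treated level was 53.4% of Control, with no overlap between groups. The fitted log2 change was -0.91 (SE 0.05, edgeR adjusted p = 3.6e-11).

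*SSRP1* (ENSG00000149136, chromosome 11 from 57325985 to 57335877) encodes a FACT subunit, which loosens and rebuilds nucleosomes ahead of and behind polymerases. It had 510.3, 506 and 489 CPM in Control and 249.5, 251 and 253.5 CPM with WNK463. The treated samples differed from each other by 0.789% (SD over mean), the tightest of any group here. The log2 change of -0.997 (SE 0.04, edgeR adjusted p = 1.4e-12) lay just short of the 2-fold limit. It crossed this limit in some fits that left out 1 sample (-1.03 to -0.99). With all samples it also did so with no filter (-1.01) and, barely, with DESeq2 (-1.0002).

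The NAP1 genes encode H2A-H2B carriers that move between cytoplasm and nucleus. *NAP1L1* (ENSG00000187109, chromosome 12 from 76036587 to 76085033) had 564, 609 and 637 CPM in Control and 453, 468 and 465 CPM with WNK463. *NAP1L4* (ENSG00000205531, chromosome 11 from 2944431 to 2992377) had 186, 201 and 201 CPM in Control and 157, 149.7 and 158 CPM with WNK463. Both fell modestly, with log2 changes of -0.38 for *NAP1L1* (SE 0.05, edgeR adjusted p = 1.4e-06) and -0.34 for *NAP1L4* (SE 0.05, edgeR adjusted p = 1.1e-05). These were -0.23 and -0.19 with total counts, and still passed. Both genes have processed pseudogenes elsewhere in the genome that the deposited table does not list, and how reads shared with them were assigned is not given in the sources used here.

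**Figure D2:**
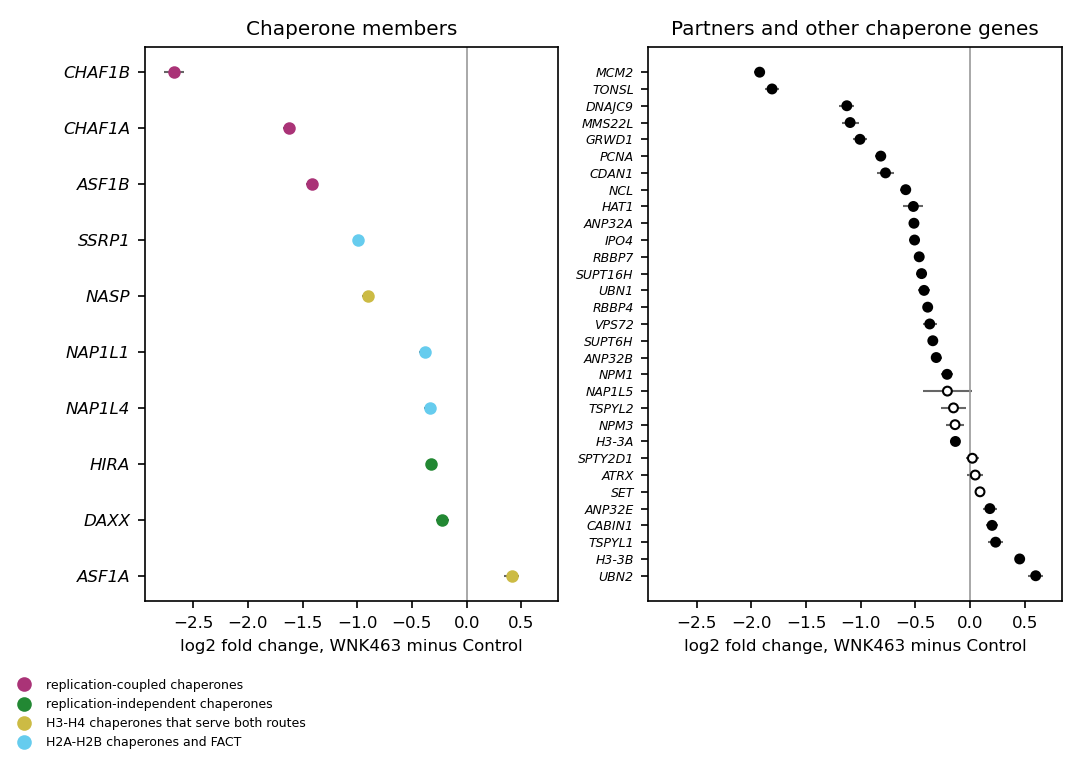
Log2 fold change (WNK463 minus Control, points) with its standard error (bars) for the 10 chaperone genes, colored by route, and for partners and other chaperone genes, where open circles did not pass an adjusted p of 0.05. The replication-coupled genes lie from -2.68 to -1.42, while HIRA and DAXX lie at -0.32 and -0.22.

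Per transcript length, the deposited TPM values ordered the genes as follows in Control. *NAP1L1* was first with 685 ± 55.7 TPM (SD, n = 3), then *SSRP1* with 379 ± 4.62, *NASP* with 300.2 ± 17.5, *NAP1L4* with 176 ± 10.7 and *ASF1B* with 156 ± 1.29. The lower 5 were *CHAF1A* with 97.1 ± 2.70 TPM, *DAXX* with 70.7 ± 2.85, *HIRA* with 59.5 ± 2.15, *ASF1A* with 34.8 ± 2.26 and *CHAF1B* with 27.3 ± 2.98. In Control no pair of neighbours in this order had overlapping values. With WNK463 *CHAF1A* moved from place 6 to place 9, at 37.0 ± 3.11 TPM, below *DAXX*, *HIRA* and *ASF1A*. In the treated samples the neighbours *DAXX* and *ASF1B* (69.4 ± 5.90 and 68.9 ± 2.22 TPM) overlapped, as did *HIRA* and *ASF1A* (55.6 ± 3.89 and 52.8 ± 3.26 TPM). *CHAF1B* stayed last at 4.89 ± 0.418 TPM.

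Ratios between 2 genes within the same sample do not depend on how libraries are scaled, and 8 pairs were compared. With 3 samples against 3, the exact two-sided permutation test cannot give a p below 0.10, which is 0.13 after Benjamini-Hochberg adjustment over the 8 pairs. The pairs below with that p therefore did not pass 0.05, and the size and the overlap of the groups are what the data give. Ratios are of counts, so the change of a ratio is meaningful and its level is not per length.

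Between the ASF1 paralogs, *ASF1B* counts were 3.37, 2.89 and 3.04 times those of *ASF1A* in Control and 0.914, 0.799 and 0.907 times with WNK463. The ratio was 3.54-fold lower with no overlap (log2 difference -1.83, exact permutation p = 0.10). In TPM, *ASF1A* made up 18.2% ± 1.06 of both paralogs in Control and 43.4% ± 2.22 with WNK463.

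Between the routes, the ratio of *CHAF1A* to *HIRA* was 1.31, 1.30 and 1.26 in Control and 0.493, 0.582 and 0.50 with WNK463. It was 2.46-fold lower without overlap, and *CHAF1B* to *HIRA* was 5.09-fold lower, also without overlap (exact permutation p = 0.10 for each). Each treated sample thus had less mRNA of either CAF-1 subunit relative to *HIRA* mRNA than each Control sample.

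The ratio of the CAF-1 subunit mRNAs differed between the groups too, while no CAF-1 protein was measured. *CHAF1B* to *CHAF1A* was 0.357, 0.384 and 0.437 in Control and 0.192, 0.162 and 0.217 with WNK463, a 2.07-fold lower ratio without overlap (exact permutation p = 0.10). *RBBP4*, which encodes the histone-binding small subunit that CAF-1 shares with other chromatin complexes, fell by 0.39 on the log2 scale (SE 0.04, edgeR adjusted p = 2.4e-07). The ratio of *CHAF1A* to *RBBP4* was 2.35-fold lower, going from 0.384, 0.391 and 0.382 to 0.158, 0.178 and 0.157 (exact permutation p = 0.10).

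FACT has a second subunit, SUPT16H, whose gene fell by 0.44 on the log2 scale (SE 0.05, edgeR adjusted p = 1.8e-07). The ratio of *SSRP1* to *SUPT16H* was 0.979, 0.881 and 0.851 in Control and 0.618, 0.606 and 0.620 with WNK463. It was 1.47-fold lower without overlap (exact permutation p = 0.10).

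Other pairs did not separate. The *NAP1L1* to *NAP1L4* ratio was 3.04, 3.02 and 3.17 in Control and 2.88, 3.13 and 2.94 with WNK463 (exact permutation p = 0.40). Single-sample log2 differences between the groups ran from -0.14 to 0.05. The *DAXX* to *ATRX* ratio overlapped too, with log2 differences from -0.60 to 0.14 (exact permutation p = 0.20).

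**Figure D3:**
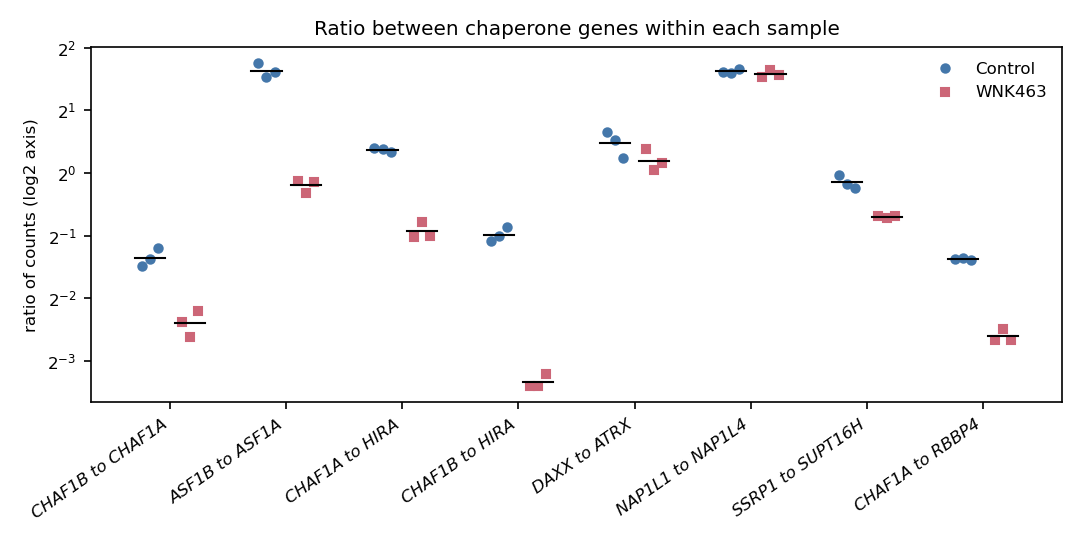
Ratio of the counts of 2 genes within each sample (log2 axis), with circles for Control, squares for WNK463 and a black line at the geometric mean of each group. The 6 pairs other than DAXX to ATRX and NAP1L1 to NAP1L4 show no overlap between groups.

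Partners of the 10 genes were read from a list of 9 genes, of which 6 fell, 2 rose and 1 did not pass. Over all tested genes, 35.3% fell and 35.5% rose. *PCNA*, the clamp that recruits CAF-1, fell (log2 fold change -0.82), having 375 ± 8.36 CPM in Control against 213 ± 11.6. *CDAN1*, whose product codanin 1 binds ASF1 in the cytoplasm, had a log2 fold change of -0.77 and *RBBP7*, a relative of *RBBP4*, -0.47. The partners of HIRA split. *UBN1* fell (log2 fold change -0.42), while its paralog *UBN2* rose from 49.9 ± 3.65 to 75.6 ± 5.33 CPM (0.60, edgeR adjusted p = 4.1e-07) and *CABIN1*, the remaining partner listed, rose by 0.20. *ATRX*, the partner of DAXX, did not pass, with 70.5 ± 8.25 CPM in Control and 72.7 ± 4.40 with WNK463 (log2 fold change 0.05), though it did with total counts (0.20, edgeR adjusted p = 0.033).

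Of all tested genes, 35.3% fell, 35.5% rose and 5.55% fell by at least 2-fold. Of 9 further H3-H4 chaperone genes, 8 fell, 0 rose and 1 did not pass, and 5 fell by at least 2-fold (2 with total counts). With total counts or TPM 1 of them, *SPTY2D1*, rose (0.17 and 0.20 in place of 0.02). *MCM2*, a helicase subunit that also binds parental H3-H4, went from 539 ± 26.8 to 142 ± 3.53 CPM (log2 fold change -1.92). *TONSL*, which reads newly placed H4 behind the fork, had 147 ± 6.07 CPM in Control and 41.8 ± 3.90 with WNK463 (-1.81). Its partner *MMS22L* had a log2 fold change of -1.10, the H3-H4 co-chaperone *DNAJC9* -1.13 and *GRWD1* -1.01. *HAT1*, which acetylates new H4, and the importin *IPO4* fell less (-0.52 and -0.51). The same list held 3 NAP1-like genes, of which *NAP1L5* did not pass (-0.21) and *NAP1L2* and *NAP1L3* had 0 CPM in every sample.

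Because 70.8% of all tested genes passed in either direction, a count of calls alone says little about a list. Of 10 genes for H2A-H2B and other acidic chaperones, 5 fell, 2 rose and 3 did not pass, and none changed by 2-fold. The falls ran from -0.59 for *NCL* (nucleolin) to -0.21 for *NPM1* (nucleophosmin), which did not pass with total counts (-0.060, edgeR adjusted p = 0.32). *TSPYL1* rose by 0.23. *ANP32E*, which removes the variant H2A.Z, rose by 0.18, but its groups overlapped and the call was lost without Control replicate 1 (0.13), Control replicate 2 (0.14) or WNK463 replicate 2 (0.11). *SET* did not pass (0.09), though it was higher with total counts (0.24, edgeR adjusted p = 0.00016). *NPM3* (-0.14) and *TSPYL2* (-0.15) did not pass, and *NPM3* changed sign with total counts (0.014).

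The clients of HIRA and DAXX are the H3.3 histones, which come from a pair of genes. *H3-3B* rose by 0.45 on the log2 scale (SE 0.05, edgeR adjusted p = 7.0e-08), with 333 ± 4.49 CPM in Control and 455 ± 17.1 in the treated samples. *H3-3A* had 283 ± 6.92 CPM in Control and 258 ± 4.46 with WNK463, and its log2 fold change of -0.14 turned to 0.02 with total counts. The wider annotation to nucleosome assembly holds 45 genes beside the 10 and the histones. Of its 31 tested genes, 14 fell, 5 rose and 12 did not pass, with a median log2 fold change of -0.16, and 3 of them fell by at least 2-fold. With total counts, 13 fell and 11 rose. Over all genes with TMM, 35.3% fell, 35.5% rose and 5.55% fell by at least 2-fold. With total counts, 3123 of 11973 fell and 5525 rose. Of 60 histone genes so annotated, 19 passed the filter on low counts, and 12 of these were higher and 5 lower. By 2-fold or more, 10 were higher and 2 lower, where the shares of all tested genes were 9.62% and 5.55%. Their log2 fold changes ran from -2.21 to 4.32, with 1.44 as the middle value. Where at least 10 counts were required in every sample, 5 were higher and 4 lower. The mRNA was captured with beads, and how completely this step recovered histone mRNA was not measured. These counts therefore describe the captured histone mRNA only.

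**Figure D4:**
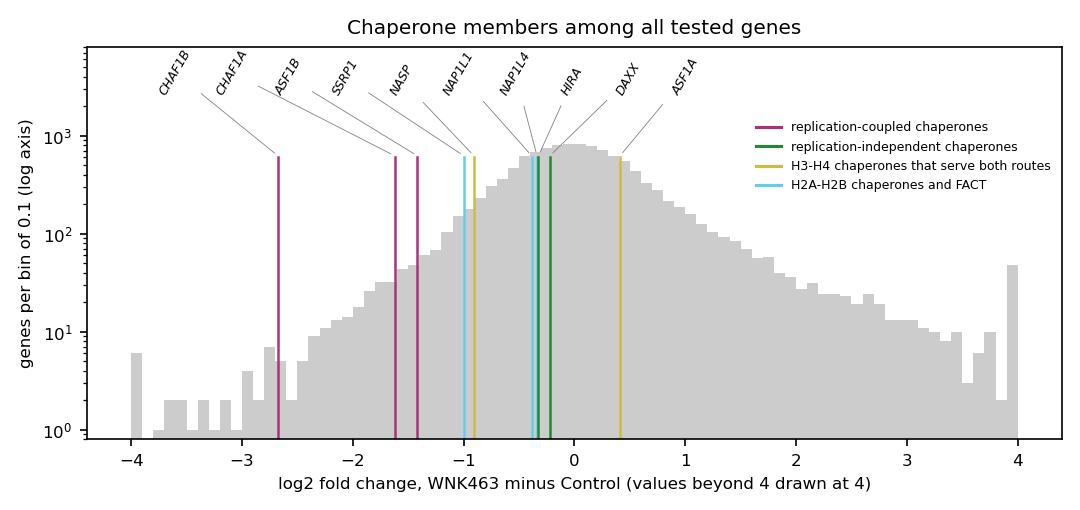
Distribution of the log2 fold change (WNK463 minus Control) over the 11973 genes tested (grey bars, log axis, bins of 0.1, values beyond 4 in size drawn at 4), with a vertical line for each chaperone gene, colored by route. The replication-coupled genes lie in the lower tail, where 2.34% of all genes or fewer have a lower value, and HIRA and DAXX lie where 27.9% and 33.9% do.

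Genes used in S phase moved with the replication-coupled chaperones. In a list of 41 S phase genes, without the 10 described here, 41 fell and 29 fell by at least 2-fold, with a median log2 fold change of -1.36. Among all tested genes the shares were 35.3% and 5.55%. The list also holds *PCNA* and *MCM2*. With total counts, 39 fell and *RPA2* turned to 0.02, and *RPA2* or *RAD51AP1* lost its call without any 1 sample other than Control replicate 1. The summed level of the list was 7065 to 7360 CPM in Control and 2792 to 2823 CPM with WNK463. In bulk RNA, fewer cells in S phase and less RNA per cell cannot be told apart, and the part of the cell cycle in the fall of the chaperone genes was not tested. By position, 5 of the 10 genes overlap another gene of the table, and how shared reads were assigned is not given in the sources used here. *HIRA* shares 96083 bases with *C22orf39* on the same strand (log2 fold change -0.02) and 4174 bases with *MRPL40* on the other (-0.53). *CHAF1B* shares 771 bases with *MORC3* (0.40). *DAXX* shares 1631 bases on the same strand with a gene that had 0 counts in every sample (*AL662820.1*), and *CHAF1A* shares 20 bases with *UBXN6*.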

How the data were processed

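MV4-11 cells were sequenced on Illumina after capture of mRNA with beads. The authors deposited unnormalized estimated counts, given as whole numbers, and TPM values that the authors normalized to sum to 1000000 per sample. The submitters' processing notes name GRCh38, fastp, Bowtie2, HISAT2, StringTie, RSEM, DESeq2 and edgeR, and their versions, roles and strand setting are not given in the sources used here. The table also holds the authors' mean TPM, fold changes and p-values, which were not used. Such counts from estimates can split reads between near-identical copies.

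Samples were grouped by their titles. The deposited counts of all 20348 genes were fitted with edgeR 4.0.16 in R 4.3.3 (default filter on low counts, TMM factors, quasi-likelihood test, Benjamini-Hochberg adjustment over 11973 tested genes). Standard errors (SE) were taken as the size of the log2 change over the root of the F statistic. CPM used the TMM library sizes. Chaperone genes, gene lists and routes were chosen with earlier results of these data known, and 1 of the gene lists is not reported here. The genes named are the 10 chaperone genes and members of the lists, with the nearest expression profiles of 3 genes. Replicate pairs differed by more than sampling noise (chi-square per degree of freedom 2.64 to 7.13). Gene positions are from GENCODE 29 on GRCh38, promoters from RefSeq on GRCh38.p14. The procedure was tested on simulated data. Alternatives were DESeq2 1.42.0, limma 3.58.1 on log2(TPM + 1) and log2(TPM + 0.1) for genes with at least 1 TPM in 3 samples, total counts, other filters, a replicate block, a 2-fold limit and each sample left out.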

Additional observations from a re-analysis of the deposited data

How the results depend on the processing

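Over all 13 alternatives, the log2 fold changes of *CHAF1A*, *CHAF1B* and *ASF1B* kept their direction and passed, and ranged from -1.67 to -1.37, from -2.75 to -2.26 and from -1.44 to -1.17. Those of *ASF1A*, *NASP*, *NAP1L1*, *NAP1L4* and *SSRP1* also passed in all 13. With limma on log2(TPM + 1) and log2(TPM + 0.1), *HIRA* (-0.10 and -0.10) and *DAXX* (-0.031 and -0.031) did not pass, and with total counts *DAXX* (-0.071) did not. Of the 10 genes, 8 fell with total counts and 7 on TPM. Over all tested genes, 3123 of 11973 fell with total counts. On TPM, 2658 of 11399 fell with a pseudocount of 1 and 2646 with 0.1. With an added limit of at least 2-fold, 3 of the 10 fell and 0 rose, against 5.55% and 9.62% of all tested genes. *SSRP1* lay just short of this limit (-0.997) and crossed it with DESeq2 (-1.0002) and with no filter (-1.01). All 8 ratios kept their direction under 7 alternatives each. Over the fits that left out 1 sample each, 9 of the 10 genes fell and 1 rose in every fit. In these fits 4004 to 4237 of all genes fell and 4010 to 4189 rose, of 12093 to 12215 tested.

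Counts in the gene lists moved by over 1.5 times as follows. With total counts, 1 of the replication-independent genes fell, 1 further H3-H4 chaperone rose, 0 H3.3 genes fell, and 11 other genes annotated to nucleosome assembly rose. On TPM with either pseudocount, these numbers were 0, 1, 0 and 8, and 3 acidic chaperones fell. Without Control replicate 1, Control replicate 2 or WNK463 replicate 2, 1 acidic chaperone rose in place of 2 (*ANP32E* lost its call), and the fits that left out 1 sample gave 1 to 2. With at least 10 counts in every sample, 5 annotated histone genes rose, since fewer were tested. Of 312 such counts, 294 stayed within 1.5 times.

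Over all genes, 50.2% of the genes called were higher with TMM, 63.9% with total counts and 65.2% on TPM. Deviations from the group means were hardly correlated between same-numbered samples (0.019, -0.007 and -0.048 across genes), and the replicate numbers were treated as names only. Under the replicate block, 9 chaperone genes fell and 1 rose, as without it. Over all 11973 tested genes, 4175 fell and 4223 rose with the block. For *CHAF1B* the log2 fold change with the block was -2.67. Counts of at least 162 per sample did not limit the 10 genes, and 3 samples per group did limit the exact tests.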

Other observations

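The genes nearest to the replication-coupled chaperones in profile were read from the Euclidean distance of log2 CPM, centred per gene, over the 6 samples. Since the profiles mostly carry the difference between the groups, this describes genes with a change of about the same size. Nearest to *ASF1B* were *FADS1* (distance 0.0771), *TUBB*, *PTBP1*, *LRRC59* and *TYMS* (0.0860), with log2 fold changes from -1.46 to -1.37. *TYMS*, the thymidylate synthase, is also among the S phase genes. Nearest to *CHAF1A* were *KCNE5* (0.149), *UTP20*, *DAZAP1*, *FOSL2* and *CSPG5* (0.172), and none of them is in the chaperone or S phase lists. Nearest to *CHAF1B* were *KANK1* (0.347), *CDCA7*, *CD302*, *PLS3* and *MYBL2* (0.505), with log2 fold changes from -2.78 to -2.36. *CDCA7*, a partner of the remodeler HELLS, is among the S phase genes, and *MYBL2* encodes a transcription factor of cycling cells.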
